A study of Mus musculus with 3 samples.

Results

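Alternative exon ends are cases in which 1 exon is joined to its neighbours at more than 1 position. The exon keeps 1 boundary and its other boundary moves, either at the acceptor, where the exon begins in the direction of transcription, or at the donor, where it ends. The data came from whole mouse liver: 3 RNA-seq libraries whose labels give a healthy male WT (wild-type) animal of C57BL/6, an inbred laboratory strain. The series concerns driver genes of hepatocellular carcinoma and has no other group here; tumours were not analysed here. Nothing in the labels ties each replicate to an animal of its own, and the spread given below could be partly technical.

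Groups were chosen by position and FPKM: they joined events of the type for alternative exon ends that belonged to 1 locus and strand, shared 1 boundary and differed at the other, and had a summed FPKM of at least 1 on average over the libraries. FPKM is the number of fragments scaled by transcript length and by the mapped total, and a form's value adds up every assembled transcript with that exon end. This gave 2794 groups in 2081 genes. They held 5594 of the 9686 distinct exons listed as alternative ends, in tables with 93242 distinct events of every type. Because FPKM and position chose the groups, their number and their levels are descriptions, and no test was made on them. Near the minimum, an acceptor group of Cep250 averaged 1.01 FPKM and was kept, and a donor group of Pard6a averaged 0.998 FPKM and was not. The design holds 1 group of samples, so there was no contrast to test and every value below describes these libraries.

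The splicing machinery recognises an acceptor by a stretch of pyrimidines followed by AG at the end of the intron, and a donor by GT, or less often GC, at its start. Where 2 such sites lie close together, both can be used, and the bases between them are kept in one mRNA and removed from the other. In coding sequence a distance that is a multiple of 3 adds or removes whole codons, and any other distance shifts the reading frame. Frame-shifted mRNAs often meet an early stop codon and are degraded by nonsense-mediated decay. Acceptors 3 bases apart are known as tandem acceptors, and they add or remove a single codon when they lie in coding sequence.

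The hepatocyte markers albumin (Alb), Apoa1, Ttr, Cps1, Hnf4a and Asgr1 were listed in all 3 libraries, with Alb at 25367, 30592 and 27018 FPKM. Markers of other cell types were listed at lower summed levels, between 85.1 and 135 FPKM for 6 Kupffer cell genes and between 33.9 and 79.2 FPKM for 5 cholangiocyte genes, of which Spp1 alone gave 75.5, 31.5 and 35.5 FPKM, and their part in the shares below was not tested. The libraries went against their sex label: the first exon of Xist, which inactivates the X chromosome in females, was at 39.6, 38.6 and 38.2 FPKM, and Ddx3y, Uty, Kdm5d and Eif2s3y of the Y chromosome had no listed event. Since this holds for all 3 libraries, no result could be given without them.

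The sites that carry the results are shown first, with the bases present only in the longer form in capitals and the neighbouring bases of the shared exon in lower case. Each is read 5′ to 3′ from the GENCODE M21 transcript of the longer exon, with its position on GRCm38. Introns were not read. In a donor pair the capitals follow the shared exon and open with the letters of the inner donor, the one used by the shorter form. In an acceptor pair the capitals come first and close with the AG of the inner acceptor.
Nr1h4 donors, 12 bases apart, chr10:89483372-89483395, minus strand: tgttggctgaatGTATGTATACAG
Tcf7l2 donors, 12 bases apart, chr19:55910658-55910681, plus strand: tccgctaggatgGTTAGTACCACA
Hnf4a donors, 30 bases apart, chr2:163568998-163569039, plus strand: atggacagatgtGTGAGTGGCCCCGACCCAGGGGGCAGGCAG
Srebf1 donors, 15 bases apart, chr11:60206173-60206199, minus strand: acagccgtgcagGCAGGTCCCCTGCAG
Sec31a donors, 45 bases apart, chr5:100373380-100373434, minus strand: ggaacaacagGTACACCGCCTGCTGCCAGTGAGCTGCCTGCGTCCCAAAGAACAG
Zfp637 donors, 4 bases apart, chr6:117843381-117843396, plus strand: tagcctttttcaGTGA
Tcf7l2 acceptors, 15 bases apart, chr19:55917339-55917365, plus strand: CTTTCTGTCCTCTAGgttccctcccca
Stat3 acceptors, 50 bases apart, chr11:100889531-100889590, minus strand: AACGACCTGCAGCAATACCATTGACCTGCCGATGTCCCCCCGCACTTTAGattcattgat
R3hdm2 acceptors, 18 bases apart, chr10:127462188-127462217, plus strand: ATGAGAGTTCCATTGCAGgatggaaggagg
Eci2 acceptors, 10 bases apart, chr13:34993209-34993230, minus strand: TGTCCTGCAGgtcttcagatta
Hgs tandem acceptors, chr11:120479087-120479104, plus strand: CAGtaccagaatggggag
Cpsf4 tandem acceptors, chr5:145178833-145178850, plus strand: CAGagagccccgcaggtc
Tsc2 tandem acceptors, chr17:24604975-24604992, minus strand: CAGaatacagacatccct
Usp19 tandem acceptors, chr9:108493561-108493578, plus strand: AAGaaacctctgggaacc
Apoa2 tandem acceptors, chr1:171225284-171225301, plus strand: CAGcactgttcctaggcc

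Acceptors varied more often than donors. Of the groups, 1679 (60.1%) varied at the acceptor and 1115 (39.9%) at the donor, and the acceptor share taken in each library alone was 60.4% ± 0.712 (SD, n = 3). A group had 2 forms in 2571 cases (92.0%), 3 forms in 202 and 4 forms in 17. Cyp2d37-ps and Trak1 each had a group with 6 forms and Mrps17 one with 5. These genes were named after their values had been seen. Protein-coding genes held 96.3% of the groups. The main pair of a group, used from here on, is its 2 forms of highest mean FPKM.

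Most boundaries were annotated splice sites. In GENCODE M21, 89.1% of the outer sites (longer form) and 90.2% of the inner sites were annotated, and 81.9% of pairs had both. Letters could be read only inside annotated transcripts, which held the inner site of 86.1% of acceptor pairs and 84.6% of donor pairs. All 1445 acceptor pairs so read had AG. Among 943 donor pairs so read, 927 (98.3%) had GT and 15 (1.59%) had GC, the letters of the inner Srebf1 site shown above. Across all neighbouring base pairs of the stretches between sites, AG made up 7.65%, GT 5.83% and GC 5.71%. The letters were searched on the transcribed strand only.

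The sequence before the inner acceptor differed slightly with the form that was higher. Of the 18 bases before the AG, 74.3% were C or T in 645 pairs in which the shorter form, made with that site, was higher, and 68.4% in 536 pairs in which the longer form was higher. The 18 bases were read only where they and the AG all lay between the sites, which leaves out tandem and other close acceptors. Over all the stretches between sites, 51.5% of bases were C or T. At inner donors, 7 or more of the 9 letters CAGGTAAGT matched in 23.6% of 555 pairs with the shorter form higher and in 19.1% of 377 with the longer form higher. Such matches made up 0.135% of all 9-base windows of the stretches between sites, at acceptors and donors together. These windows were not required to hold GT, which nearly all inner donors have, so the values are not like for like. The closest donors, such as those 4 bases apart, were left out. Pairs whose longer form was also listed with a retained intron, given below, were not set apart in these comparisons.

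Sites lay close together, and distances that keep the reading frame were frequent. The median distance was 61 bases for acceptors and 99 for donors. At acceptors, 37 pairs lay 3 bases apart, from 1 to 10 pairs at each distance from 4 to 11 bases, and 33, 42, 36, 43 and 34 pairs at 12, 15, 18, 21 and 24 bases. At donors the most frequent distance was 12 bases, with 30 pairs, as in Nr1h4 and Tcf7l2; 9 pairs lay 4 bases apart and none 3. Multiples of 3 made up 54.5% of 505 acceptor pairs and 45.5% of 264 donor pairs at up to 30 bases, against 34.2% of 629 and 38.0% of 553 at over 100 bases. Over all pairs the share was 40.8%, and in the single libraries 41.9% ± 0.881 (SD, n = 3).

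**Figure D1:**
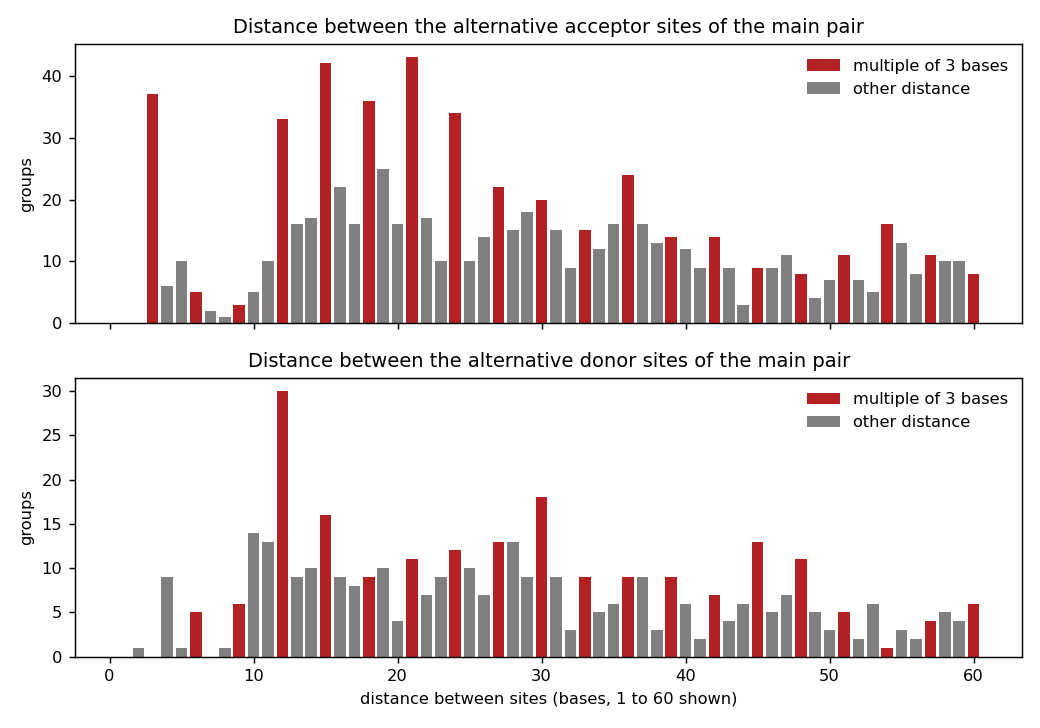
Number of groups (y axis) at each distance between the sites of the main pair, 1 to 60 bases (x axis), for acceptors (top) and donors (bottom). Red bars are multiples of 3 bases and grey bars other distances; the red bars at 3, 12, 15, 18, 21 and 24 bases stand above their grey neighbours at acceptors, and the bar of 30 pairs at 12 bases is the highest at donors.

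In coding sequence, frame-keeping pairs were more frequent where the lesser form held a larger share of the pair. The varying end lay in coding sequence (CDS) of a protein-coding transcript in 2345 groups (83.9%), in a 5′ UTR in 217 and in a 3′ UTR in 16. Among CDS pairs with both forms listed in every library, multiples of 3 made up 35.9% of 290 pairs whose lesser form held under 5% of the pair's FPKM, 46.1% of 245 pairs at 5 to under 20% and 54.7% of 309 pairs at 20% or more. With shares taken in each library alone, the percentages were 38.6 ± 1.43, 42.2 ± 1.07 and 49.8 ± 2.64 (SD, n = 3). The highest class stood above the lowest in each library, by more than the spread between libraries. Many pairs are the same in all 3 libraries, so this spread does not measure the sampling error over pairs. In 5′ UTRs, where a shift of frame changes no protein, the 3 classes were at 32.5 ± 9.61, 46.5 ± 5.05 and 40.1 ± 3.82% (SD, n = 3). These rest on 31 to 60 pairs per class and library, and the difference between 5′ UTRs and CDS was not tested. Pairs without a form in some library, 1501 in CDS, had 39.4%. Alternative exon ends were listed down to 6e-06 FPKM, and no counts are given. Lesser forms in the class under 5% may thus rest on few reads or none.

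**Figure D2:**
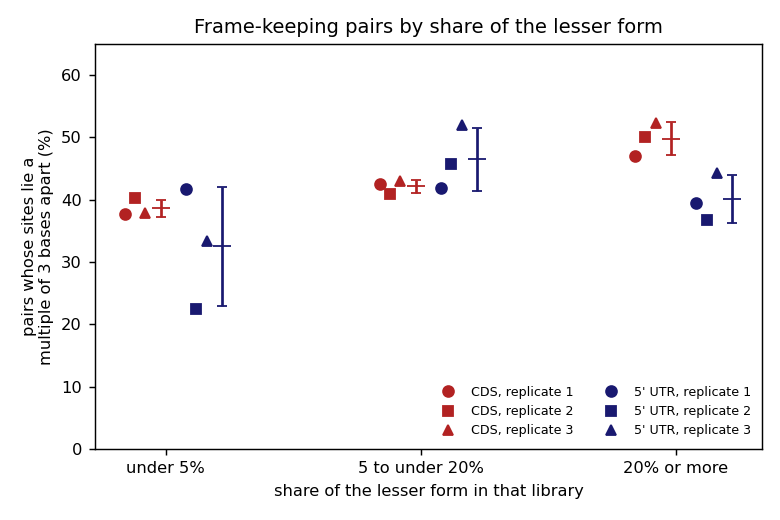
Pairs whose sites lie a multiple of 3 bases apart, in percent of pairs (y axis), by the share of the lesser form in that library (x axis). Each symbol is 1 library, red for coding sequence and dark blue for 5′ UTRs, and the bar is the mean ± SD of the 3 libraries; the red symbols lie at 37.7 to 40.2% on the left and at 47.0 to 52.3% on the right.

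Many of the long extensions were also listed as retained introns. In 717 groups (25.7%) the longer form was also listed as an exon that holds a retained intron, with a median distance of 706 bases against 45 in the other 2077 groups. The longer form was the higher one in 12.4% of the 717 and in 48.8% of the 2077. Without the 717, CDS pairs at 20% or more kept the frame in 60.9% of 235 cases and those under 5% in 39.0% of 218. A form was also listed as a skipped exon in 487 groups (17.4%).

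The shorter exon was more often the higher form, but not at every distance. The longer form was higher in 41.6% of acceptor pairs and in 36.3% of donor pairs. Over all pairs it was higher in 39.5%, and in the single libraries in 40.8% ± 1.02 (SD, n = 3). Among pairs with both forms listed in every library it was higher in 45.7% of 300 at distances of up to 30 bases, in 53.4% of 296 at 31 to 100 bases and in 27.1% of 361 at over 100 bases. Most pairs were unequal. In the 957 complete pairs (34.3%), those with both forms listed in every library, the lesser form held a median of 14.0% of the pair, 10% or more in 548 pairs and 40% or more in 104. In the remaining 1837 pairs a form was missing from at least 1 library. The tables do not list events at 0, so such a form is given below as not listed, and no mean share with SD is given for these pairs.

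The libraries matched more closely at higher levels, where pairs were also less balanced. In 759 of the 957 pairs (79.3%) all 3 libraries had the same form higher. This held for 89.5% of 418 pairs with a mean of at least 10 FPKM and for 71.4% of 539 pairs below it. The share of the longer form spanned a median of 5.34 percentage points between libraries in the first and 19.4 in the second. The median lesser share was 6.38% in the first and 18.8% in the second, and its part in this difference was not tested. Where 1 library stood alone with the other form higher, it was replicate 1 in 69 pairs, replicate 2 in 62 and replicate 3 in 67. Pearson's r of the share across the 957 pairs, which are not independent replicates and share their library, was 0.835 for replicates 1 and 2, 0.818 for replicates 1 and 3, and 0.857 for the pair without replicate 1.

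**Figure D3:**
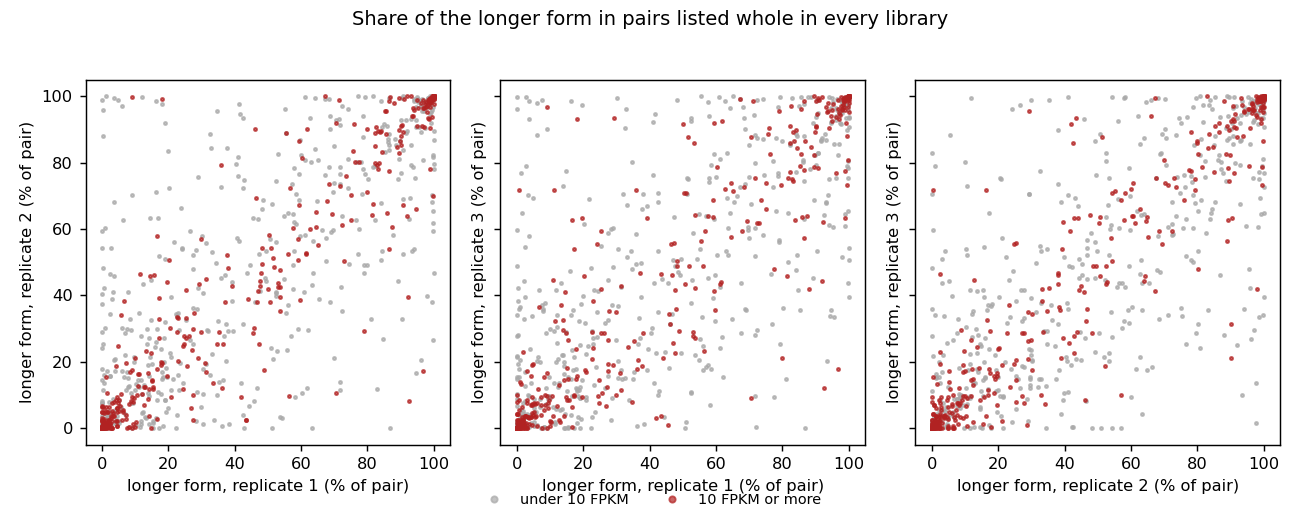
Share of the longer form in the FPKM of the main pair, in percent, in 1 library (x axis) against another (y axis), for the 957 pairs with both forms listed in every library. Each point is 1 pair, red at a mean of 10 FPKM or more and grey below; points gather near 0 and 100% and along the diagonal, and grey points lie farther from it.

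Of 11 complete pairs of liver transcription factors and nuclear receptors, 4 had a lesser form of 20% or more, against 372 of 957 (38.9%) over all complete pairs; those of Nr1h4 and Hnf4a were among them. Nr1h4, the bile acid receptor FXR, has 12 bases (4 codons) between its donors. The longer form had 14.6, 24.7 and 20.6 FPKM in replicates 1, 2 and 3 and the shorter form 32.0, 30.3 and 27.3 FPKM. The shorter form was higher in every library, and the longer one held 39.7% ± 7.30 (SD, n = 3). Hnf4a, a main regulator of hepatocyte genes, has 30 bases (10 codons) between its donors. Its longer form had 46.8, 67.1 and 65.4 FPKM and its shorter form 11.9, 27.2 and 23.8 FPKM. Here the longer form was higher in every library and held 74.7% ± 4.46 (SD, n = 3); its inner donor is not annotated in GENCODE M21.

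Other factors were uneven, incomplete or changed their higher form between libraries. Stat3, the transcription factor of the IL-6 response, has acceptors 50 bases apart, whose shorter form is the known beta isoform without the usual end of the protein. The longer form had 16.4, 21.9 and 21.8 FPKM, and the shorter one 0.0091, 0.015 and 0.068 FPKM. The longer form thus held 99.9% ± 0.142 (SD, n = 3). No counts are given, so whether the shorter form rests on any read at these values could not be told. Srebf1, the regulator of fatty acid synthesis, was named after its values had been seen; its donors 15 bases apart gave 59.4, 67.2 and 41.2% for the longer form, so replicate 3 had the other form higher. For Tcf7l2, a partner of beta-catenin in Wnt signalling, the longer donor form had 0.51, 2.91 and 3.62 FPKM, and the shorter was listed only in replicate 2, at 0.12 FPKM. Its acceptors 15 bases apart were listed in replicates 2 and 3, where the longer form had 0.27 and 0.053 FPKM and the shorter 2.61 and 3.15 FPKM.

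Nr1i3, the xenobiotic receptor CAR, had donors 301 bases apart, and the libraries split over them. The longer form had 33.1, 15.6 and 13.3 FPKM and the shorter 1.10, 75.0 and 61.1 FPKM. In replicate 1 the longer form held 96.8% of the pair and in replicates 2 and 3 it held 17.2 and 17.9%. Mlxipl, the carbohydrate-responsive factor ChREBP, had a pair 28 bases apart with 41.8, 9.48 and 3.15% for the longer form and one 40 bases apart with 1.11, 15.2 and 1.19%. The group of the pair 28 bases apart had another form, at 14.0, 7.89 and 5.14 FPKM. In replicates 2 and 3 that form stood above the longer form of the pair, at 6.99 and 1.14 FPKM. Of 38 liver transcription factors and nuclear receptors 12 had a group, 17 groups in all, and 11 of the 17 distances were multiples of 3, against 1139 of 2794 over all groups. The share of all listed genes that had a group was not computed. The counts of genes with a group, here and in the lists below, therefore have no background beside them.

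Among genes known for alternative splice sites, 12 of 22 had a group, 20 groups in all, and 8 pairs had both forms in every library. Fn1, fibronectin, has 3 acceptors in the exon of its variable region, giving exons of 107, 392 and 467 bases. The shortest form had 41.5, 83.7 and 120 FPKM and made up 99.4, 93.7 and 99.999% of the group in replicates 1, 2 and 3. Vegfa, the endothelial growth factor, had a longer form that spans an intron, with 20.7, 16.7 and 25.3 FPKM against 58.5, 43.5 and 62.9 FPKM for the short exon at its donor. That longer form held 27.5% ± 1.30 (SD, n = 3) of the donor pair. At its acceptor the same form held 75.0, 62.8 and 66.1% against a short exon of 6.89, 9.93 and 13.0 FPKM, or 68.0% ± 6.32 (SD, n = 3). Bcl2l1, an inhibitor of apoptosis, varied in its 5′ UTR by 18 bases, and the longer form was listed only in replicate 3, at 4.71 FPKM against 3.85 FPKM for the shorter.

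Several other pairs of that list were uneven or incomplete. The splicing factor gene Rbm39 had acceptors 18 bases apart with 43.3, 2.47 and 3.75% for the longer form, so replicate 1 stood apart. U2af1, the subunit that reads the acceptor AG, had 13.1, 12.4 and 12.5 FPKM for its short exon, and its longer donor form, 2801 bases longer, was listed only in replicate 1 at 2.27 FPKM. Mdm2, the regulator of p53, had acceptors 981 bases apart, whose longer form held 6.17 and 17.5% in replicates 1 and 3, and donors 46 bases apart, whose longer form was listed only in replicate 1 at 3.23 FPKM. The long donor pairs of Tsc2 had no longer form listed in at least 1 library.

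Tandem acceptors were the closest acceptor pairs, and many had both forms at a sizeable share. Of the 37 pairs 24 lay in CDS, and the longer form was higher in 24. In the 24 pairs with both forms in every library, the lesser form held 20% or more in 16, against the 372 of 957 given above. Most of the 37 pairs averaged under 10 FPKM. Over all complete pairs the median lesser share was 18.8% under 10 FPKM and 6.38% at 10 FPKM or more. The counts were not matched for level, and the part of level in this difference was not tested. The 3 bases between the sites could be read in 35 pairs and were CAG in 27, TAG in 4, AAG in 3 and GAG in 1. The pairs with CAG had a median of 57.8% for the longer form.

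Single tandem pairs ranged from near balance to a clear main form. Hgs, a sorting protein of endosomes, had 6.52, 5.51 and 7.97 FPKM for the longer form and 4.54, 5.37 and 4.54 FPKM for the shorter. The longer form was slightly higher in each library and held 57.8% ± 6.60 (SD, n = 3). Cpsf4, of the polyadenylation machinery, had 63.5, 46.8 and 52.1% for the longer form, so replicate 2 had the shorter form slightly higher. Tsc2, the tumour suppressor that restrains mTORC1, had 1.51, 3.30 and 2.57 FPKM for the longer form and 1.80, 1.92 and 3.30 FPKM for the shorter, so that the higher form differed between libraries. The deubiquitinase gene Usp19, the pair with AAG shown above, had 89.6, 81.0 and 68.7% for the longer form, which was higher in each library, and Msl3 of the chromatin had 84.5, 90.7 and 87.9%.

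Other tandem pairs lay in 5′ UTRs. The most abundant group of all was in Apoa2, an apolipoprotein of high-density lipoprotein, with 4 acceptors. The group had a mean of 9704 FPKM, while the first exons listed for its locus summed to a mean of 215 FPKM. Over the 2759 groups with such a sum, the median group stood at 96.5% of it. The reason was not tested, and the level of the Apoa2 group is uncertain. Its main pair had 6756, 5112 and 4691 FPKM for the longer form and 6386, 4875 and 648 FPKM for the shorter. Replicates 1 and 2 were close to equal, at 51.4 and 51.2% for the longer form, and replicate 3 stood apart at 87.9%. Rbmx, an RNA-binding protein gene of the X chromosome, had 35.1, 13.9 and 16.8%, Fam114a2 had 41.1, 81.6 and 92.4% and Rnf44 had 0.144, 2.42 and 4.27%. The shorter form of Rcbtb1 was listed only in replicate 2, at 1.29 FPKM.

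Donors 4 bases apart shift the frame. All 9 lay in CDS, and none of the 3 with both forms in every library had a lesser form of 20% or more. The bases between them were GTAG in 5 of 8 that could be read. Zfp637 had 0.92, 1.43 and 1.62 FPKM for the longer form and 5.56, 7.63 and 6.56 FPKM for the shorter, or 16.6% ± 2.88 (SD, n = 3). Safb2, of the nuclear matrix, had 1.54, 0.0062 and 0.0013 FPKM for the longer form against 18.7, 16.5 and 15.8 FPKM for the shorter. A lesser form was listed in only 1 library for Entpd8 (0.42 FPKM) and Slc25a45 (0.10 FPKM). Mroh1 had its shorter form only in replicate 1, at 10.4 FPKM.

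The most abundant pairs with at least 5% for each form in every library came from liver enzymes and secreted proteins. Serpind1, the thrombin inhibitor heparin cofactor, had 122.9, 128.6 and 157.7 FPKM for the longer form of its 5′ UTR acceptors and 40.6, 54.6 and 56.1 FPKM for the shorter, or 73.1% ± 2.57 (SD, n = 3). Eci2, an isomerase of fatty acid oxidation, varied by 10 bases at the acceptor shown above, with 36.9, 37.3 and 25.3 FPKM against 40.6, 47.1 and 35.6 FPKM. Its longer form held 44.4% ± 3.07 (SD, n = 3) and was the lesser in every library, although the distance is not a multiple of 3. Spr, the sepiapterin reductase of cofactor synthesis, had 76.3, 80.2 and 82.5% for the longer form, and Fcgrt, the neonatal Fc receptor that recycles IgG and albumin, had 88.8, 84.7 and 84.8%. Prodh2 had 94.8, 91.0 and 92.6%, and Fkbp2 had 17.7, 19.8 and 23.7%. Another form of the Prodh2 group had 7.12, 0.79 and 9.15 FPKM. In replicates 1 and 3 it stood above the shorter form of the pair, at 5.21 and 5.64 FPKM.

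The other abundant pairs ranged from a small share of the longer form to near balance. Agmat had 9.92, 9.36 and 9.09 FPKM for the longer form and 85.0, 86.1 and 84.5 FPKM for the shorter, a share of 9.99% ± 0.399 (SD, n = 3). Uroc1, of histidine breakdown, had 6.28, 5.39 and 11.7% for its longer form, which adds 102 bases. Itih2, a plasma protein that binds hyaluronan, had 39.0, 42.7 and 63.3%, with replicate 3 apart, and the mitochondrial carrier Slc25a39 had 5.55, 34.2 and 7.11%, with replicate 2 apart. Upp2, an enzyme of uridine breakdown, had 9.12, 17.5 and 16.6% for an acceptor form 1844 bases longer. Genes with near-identical relatives gave uncertain values: Mup3 had 48.1, 54.1 and 50.3%, Cyp4a10 had 90.3, 91.3 and 94.7%, Cyp3a25 had 46.7, 38.1 and 46.2% and H2-T23 had 9.64, 8.92 and 8.52%.

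Other pairs had a mean share close to 50%. Cdc37, the chaperone partner of kinases, had 6.62, 7.11 and 6.58 FPKM for the longer form and 7.08, 7.24 and 6.89 FPKM for the shorter, 147 bases apart, or 48.9% ± 0.618 (SD, n = 3). Med8, of the Mediator complex, had 51.7, 48.4 and 48.8% with acceptors 40 bases apart. Sec31a, a coat protein of vesicles leaving the endoplasmic reticulum, had 56.0, 52.5 and 48.7% with donors 45 bases apart, where the inner GT opens the capitals shown above. Osgin1 had a longer exon that spans an intron, with 38.7, 34.7 and 27.0 FPKM. It held 61.5, 52.8 and 44.1% at the acceptor and 61.3, 52.5 and 43.5% at the donor; both groups count the same longer form, and the higher form differed between libraries.

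Other pairs at 10 FPKM or more turned over between libraries. R3hdm2, with acceptors 18 bases apart, had 1.34, 12.7 and 17.0 FPKM for the longer form and 13.8, 0.014 and 0.56 FPKM for the shorter. Ip6k1, an inositol phosphate kinase gene, had 11.2, 0.94 and 1.80 FPKM for the longer donor form and 0.89, 10.9 and 13.1 FPKM for the shorter. Hsd17b6, a steroid and retinoid dehydrogenase gene, had 18.1, 99.3 and 93.1% for the longer form of its 5′ UTR donors, 11 bases apart. In the pairs of these 3 genes that turned over, and in that of Nr1i3, replicate 1 stood alone. In Cnbp, a nucleic acid binding protein gene with 79.8, 90.0 and 21.1%, and in Psmd11, of the proteasome, with 0.521, 0.420 and 71.8%, it was replicate 3. Psmd11 had another donor form at 7.77 FPKM in replicate 3 alone, and of the whole group the longer form held 45.2% there. Depth is not given in the tables, so whether such turns exceed the counting error of 1 library was not tested.

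**Figure D4:**
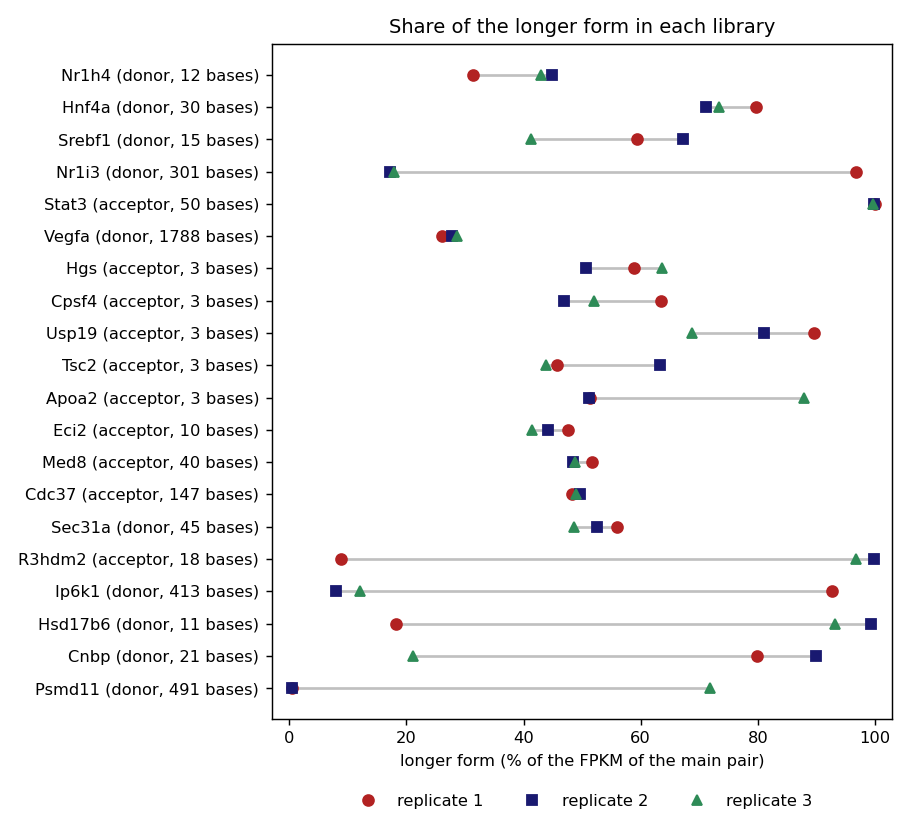
Share of the longer form in the FPKM of the main pair, in percent (x axis), for 20 pairs named in the text (y axis, with the varying boundary and the distance). Symbols are the 3 libraries and the grey line spans them; Stat3 lies near 100% and Cdc37 near 50% in each library, while R3hdm2, Ip6k1, Hsd17b6, Nr1i3, Cnbp and Psmd11 each span 68.9 percentage points or more.

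Many abundant genes had 1 form at nearly all of the pair. Of 60 plasma protein genes 16 had a group, and 10 complete pairs had a median lesser share of 1.65%, against 14.0% over all 957 and 6.38% over the 418 at 10 FPKM or more. For Apoe, the lipoprotein ligand, the longer form of acceptors 33 bases apart had 7494, 4566 and 3070 FPKM and the shorter 8.16 and 1.34 FPKM in replicates 1 and 2, and was not listed in replicate 3. Pck1, the enzyme that commits carbon to glucose synthesis, had 0.129, 0.086 and 0.147 FPKM for its longer form against 674, 318 and 547 FPKM. Ahcy, of the methionine cycle, had 297, 308 and 363 FPKM for its longer form; the shorter had 0.104 and 0.105 FPKM in replicates 1 and 2 and was not listed in replicate 3. Gstm1, a glutathione transferase with near-identical relatives, had 3.17, 3.53 and 3.41% for its longer form. Of 68 liver metabolism genes 10 had a group, and 4 complete pairs had a median lesser share of 11.6%.

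Housekeeping genes gave the same picture. In ribosomal protein and respiratory chain genes, 47 genes had 57 groups, and 27 complete pairs had a median lesser share of 1.04% and the same higher form in every library. Rps18 had 282.5, 197.0 and 219.1 FPKM for its longer form and at most 0.0069 FPKM for the shorter, and Cox7c had 301.5, 209.6 and 196.0 FPKM against 1.01, 1.19 and 1.36 FPKM. Ndufa4 had 270.2, 200.6 and 181.4 FPKM for the longer form of its main pair. Of 55 splicing regulator genes 33 had a group, 63 groups in all, with a median lesser share of 15.2% in 21 complete pairs, against 14.0% over all 957. Whether 33 of 55 differs from the share over all listed genes was not tested. Among them Hnrnpk had acceptors 15 bases apart with 68.8 and 48.6% for the longer form in replicates 1 and 2, and its shorter form was not listed in replicate 3, Srsf5 had a longer donor form only in replicate 3, at 7.29 FPKM, and Snrnp70 had 0.031, 0.448 and 0.098%. Of 43 liver cancer driver genes 10 had a group, 14 groups in all, with a median lesser share of 27.5% in 5 complete pairs, among them both Vegfa pairs, which share their longer form. Map2k2, a kinase of the RAS pathway, had acceptors 132 bases apart with 10.7 and 30.7% for the longer form in replicates 1 and 3, and that form was not listed in replicate 2.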

How the data were processed

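The labels' protocols allow either poly(A) selection or ribosomal RNA removal before sequencing. The deposited tables hold 1 FPKM per transcript-structure event, per the file headers, computed by the authors. Per the submitters' processing notes, HISAT2 2.0.1, cutadapt 1.9.1, DESeq2 and HTSeq 0.6.1 were used with mm9, in roles not given; which tool wrote the event tables was not stated. FPKM was shared between overlapping transcripts before deposit, so forms a few bases apart rest on few reads; the tables hold no counts and depth is unknown.

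Identical rows were dropped, leaving 71716, 74243 and 74236 events, of which 7544, 7788 and 7802 were alternative exon ends. A form absent from a library counted as 0. Of these exons 86.1% matched GENCODE M21 (GRCm38) exactly and 0% after a shift of 1000 bases, so positions were read as GRCm38. Groups were given to a gene by exact exon (96.2%), splice site, or the table's identifier; 15 were not placed. The share is a form's FPKM in percent of the main pair. The grouping was tested on simulated data. Python 3.11.15, pandas 2.3.3 and matplotlib 3.10.9 were used.

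Members, gene lists and rules were chosen with earlier results of these data known. Named were the 10 most abundant groups per boundary with at least 5% in each form, 10 tandem acceptors and 5 donors at 4 bases, the 6 widest and 6 most even pairs at 10 FPKM or more, known genes, and 3 per list. Some of these are given only in counts or not reported here.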

Additional observations from a re-analysis of the deposited data

How the results depend on the processing

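No paired analysis was possible because the libraries form 1 group, and no test was made. The text's counts rest on a minimum of 1 FPKM. Alternatives were judged against the SD of the 3 libraries, and a count was held to 1.5 times. For the same higher form, the SD was instead that of the 3 runs that each left out a replicate, 0.291 percentage points. With a minimum of 5 FPKM there were 1533 groups, 39.4% kept the frame, the longer form was higher in 36.9%, the median lesser share was 10.7%, the same form was higher throughout in 85.6%, and the median log2 ratio of longer over shorter was -2.73 against -1.71 (pseudocount 0.1 FPKM). With no minimum that ratio was -1.12. Leaving out forms under 10% of their group gave 1219 groups, 58.6% acceptors, 44.3% in frame, 42.1% with the longer form higher, a lesser share of 28.0%, the same higher form in 63.7% and a ratio of -0.56. Only groups whole in every library gave 902 groups, 44.2% in frame, 40.7% with the longer form higher, a lesser share of 13.0%, the same higher form in 80.04% and a ratio of -0.90. Pseudocounts of 0.01 and 1 FPKM gave ratios of -2.27 and -0.83. Choosing the main pair by mean share was run for frame keeping, the higher form and the lesser share, and averaging over listing libraries for all of these results except the gap below; neither moved those values beyond the spread.

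Leaving out each replicate gave 2372 to 2449 groups, 59.6 to 60.5% acceptors, 40.6 to 41.7% in frame, 39.3 to 40.7% with the longer form higher, a lesser share of 12.9 to 13.3%, the same higher form in 85.9 to 86.4% and ratios of -1.54 to -1.42. The agreement is higher there since only 2 libraries must match. The gap in frame keeping between CDS pairs at 20% or more and under 5%, 18.8 percentage points, was 13.5 to 16.5 without single replicates and 25.1 at distances of up to 100 bases; these alternatives, like those at 5 FPKM, no minimum and whole groups for this gap, were chosen after seeing the data. No depth was given, so counting error could not be set beside any share.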

Other observations

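The acceptor group of Cyp2d37-ps, a pseudogene in a cluster of close relatives, had 6 forms. The form with an exon of 2412 bases had 9.09 and 9.39 FPKM in replicates 1 and 2 and was not listed in replicate 3. The 5 other forms were listed in replicate 3 alone, at 1.35 to 18.2 FPKM. Reads of near-identical relatives can be shared, so the separate values are uncertain.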
